A study of Mus musculus with 14 samples.

Results

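Cerebellins, neurexins and delta glutamate receptors form a protein bridge across the synapse between cerebellar granule cells and Purkinje cells. The genes described here are Cbln1, Cbln2, Cbln3 and Cbln4 (secreted cerebellins), Nrxn2 and Nrxn3 (presynaptic neurexins) and Grid1 (a delta receptor). They were chosen by name for their place in this bridge, with earlier results of these data known. They are 7 of the 41381 genes measured. Their expression, in units of TPM (a transcript's share of all transcripts, corrected for length), was compared by genotype in RNA sequencing (RNA-seq) of granule neuron progenitors (GNPs). GNPs proliferate in the external granule layer of the young cerebellum and mature into granule neurons. The cells were isolated from postnatal day 7 (P7) mouse cerebella on a percoll gradient, and the sex of the pups was not distinguished. The WT group (5 libraries) carried no Cre and was labelled Chd7 wild type or Atoh1-Cre negative. Its mice are described in the study as carrying floxed Chd7 (Chd7 f/f). The Het group (5 libraries) was Atoh1-Cre::Chd7 f/+ and the Hom group (4 libraries) was Atoh1-Cre::Chd7 f/f. Atoh1-Cre is active in the granule cell lineage and not in Purkinje cells, and Chd7 encodes a chromatin remodeller. The strain was given as C56Bl6/J for 7 libraries (WT 1 to 3, Het 1 and 2, Hom 1 and 2) and as C57BL/6 for the rest.

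Granule cell axons, the parallel fibres, release cerebellin hexamers that bind neurexin on the axon and a delta receptor on the Purkinje cell spine, and so hold the synapse together. Cbln1 is the main cerebellin of granule cells, and mice without it lose many parallel fibre synapses and become ataxic. Granule neurons make these axons and synapses after the progenitor has left the cell cycle, so the present libraries sample the bridge genes before and around that step.

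The libraries were sequenced in 2 batches, with WT 1 to 3, Het 1 to 3 and Hom 1 and 2 in batch 1 and the other 6 in batch 2. Chd7 itself did not follow the labels throughout: its fitted Hom minus WT difference was -0.11 (SE 0.20) on the log2(TPM + 1) scale, with 0.41 in batch 1 and -0.77 in batch 2. These values are for the whole gene and include reads from any exons outside the deleted part, so they are a limited check. Genotypes below are those of the labels. Progenitor markers were abundant (summed TPM of 6 markers 2016 to 2804), and Gabra6, a marker of mature granule neurons, was at 0 in 1 library and at or below 1.03 TPM in all others. WT 1, WT 2, WT 3 and Het 3 stood apart in other cell types, with a summed endothelial TPM of 19.0 to 31.5 against 100.2 to 402.7 in the other libraries, and with the highest Purkinje cell sums (50.7 to 93.7 against 18.8 to 33.9). In bulk RNA, fewer cells of a type and less RNA per cell cannot be told apart. Nothing in the labels says which libraries came from separate animals, so p-values measure the spread between these libraries, which may be technical.

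The 4 cerebellin genes are compact and share their coding plan, which raises the question of whether short reads can tell them apart. On GRCm38, Cbln1 (ENSMUSG00000031654) lies at chr8:87468405-87472609 on the minus strand, Cbln3 (ENSMUSG00000040380) at chr14:55878913-55884392 on the minus strand and Cbln4 (ENSMUSG00000067578) at chr2:172036233-172043466 on the minus strand. Their coding sequences, and that of Cbln2 (ENSMUSG00000024647), were 579 to 672 bases long and 58.7% to 71.7% identical between pairs. Cbln1 and Cbln2 were the most identical pair (71.7%), and Cbln2 is not part of the window shown next. The most alike stretch of 60 bases that could be aligned without a gap in Cbln1, Cbln3 and Cbln4 lies in exon 1. It is shown to let these 3 sequences be compared. Capitals mark the 38 bases that all of them share, and the positions are chr8:87472125-87472184, chr14:55884063-55884122 and chr2:172042174-172042233, each read on the minus strand 5′ to 3′.
Cbln1: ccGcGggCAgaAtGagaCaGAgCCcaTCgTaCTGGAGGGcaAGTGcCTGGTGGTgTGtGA
Cbln3: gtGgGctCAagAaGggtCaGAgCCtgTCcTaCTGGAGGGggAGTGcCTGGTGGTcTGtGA
Cbln4: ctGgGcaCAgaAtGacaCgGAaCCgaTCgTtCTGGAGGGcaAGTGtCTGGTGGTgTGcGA

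Within this window Cbln1 differed from Cbln4 at 11 bases and from Cbln3 at 16. The longest run of identical bases between the coding sequences of any pair of cerebellins was 21, well short of the 50-base reads. Over all annotated transcripts, no 50-base stretch was shared between members, and Cbln1, Cbln2 and Cbln4 shared none with any other gene. The share was 1.87% for Cbln3, 1.27% for Grid1, 3.04% for Nrxn3 and 5.29% for Nrxn2, and most of the last was an overlap with the neighbouring gene Slc22a12. The other members are large genes. Grid1 (ENSMUSG00000041078, chr14:34820108-35583379, plus strand) spans 763 kb, Nrxn2 (ENSMUSG00000033768, chr19:6418731-6544169, plus strand) 125 kb and Nrxn3 (ENSMUSG00000066392, chr12:88722876-90334935, plus strand) 1612 kb.

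All 7 members passed the filter on low values (1 TPM or more in 4 or more libraries), but their levels differed widely. In WT, Cbln1 had a mean of 179.0 TPM (SD 23.8, n = 5), above 94.8% of the 17325 genes tested. Nrxn2 followed with 86.1 TPM (SD 21.2) and Nrxn3 with 19.6 TPM (SD 4.13). Grid1 (4.69 TPM, SD 1.47), Cbln2 (3.50 TPM, SD 1.10), Cbln3 (2.20 TPM, SD 0.56) and Cbln4 (1.59 TPM, SD 1.01) were at low levels. TPM is scaled by transcript length, so these levels can be set side by side. The WT ranges of Cbln1, Nrxn2, Nrxn3 and Grid1 did not overlap from one to the next, whereas those of Grid1 and Cbln2, Cbln2 and Cbln3, and Cbln3 and Cbln4 did. Cbln1 was thus nearly the whole cerebellin pool, with 96.1% of its summed TPM in WT (SD 0.80).

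**Figure D1:**
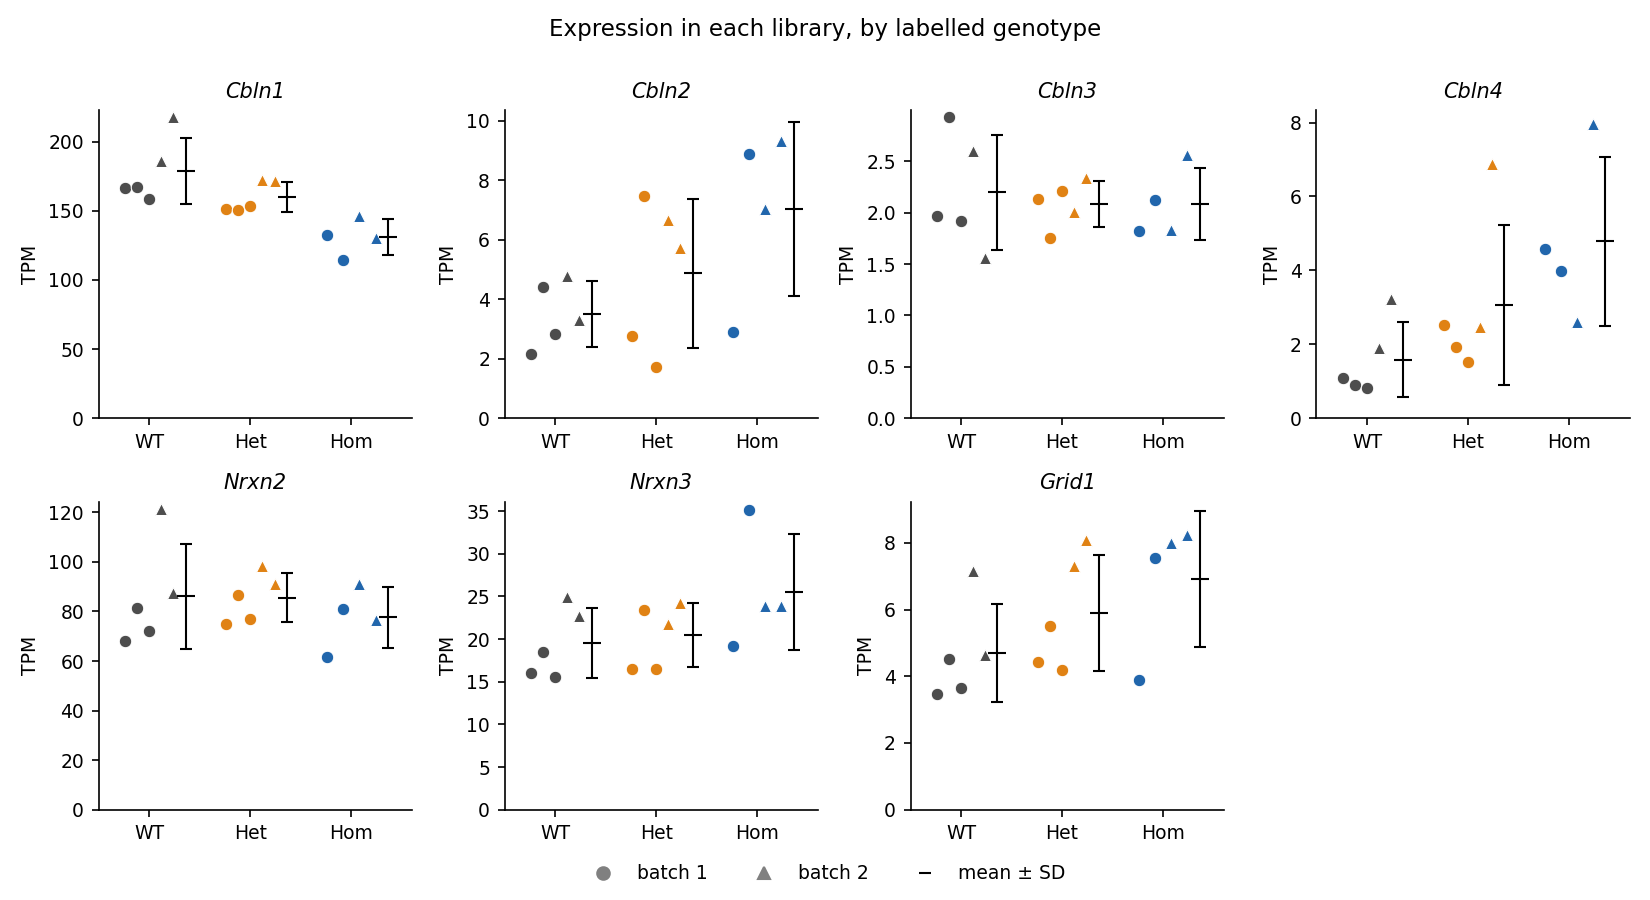
TPM of the 7 members (y axis, from 0) in each library by labelled genotype (x axis), with circles for batch 1, triangles for batch 2 and bars for the mean ± SD of each group. All 4 Hom libraries of Cbln1 lie below every WT library, while the groups overlap in the other panels.

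Cbln1, the cerebellin that granule cells secrete onto Purkinje cells, was lower in Hom. Its TPM was 166, 167, 158, 186 and 218 in WT 1 to 5. In Het 1 to 5 it was 151, 150, 154, 172 and 171. In Hom 1 to 4 it was 133, 114, 146 and 130. Every Hom library lay below every WT and every Het library, and every Het library lay below the WT libraries of its own batch. Of all genes tested, 1.96% had every Hom library below every WT library (3.56% within each batch), and 1.09% had every Het library below the WT libraries of its batch. The full order, with no overlap between the 3 genotypes in either batch, was found for 0.214% of genes in this falling direction and 0.208% in the rising direction, and for no other member. The Hom mean was 73.2% of the WT mean, with 75.4% in batch 1 and 68.6% in batch 2, and the Het mean was 89.3% of it.

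In the fit with batch as a term, Cbln1 fell by 0.47 in Hom on the log2(TPM + 1) scale (SE 0.06, 95% interval -0.60 to -0.33, limma adjusted p 0.00107). It was the only member of the 7 called at an adjusted p under 0.05 in Hom against WT, where 1.41% of all genes were called lower and 1.27% higher. Before adjustment (p under 0.05) it was again the only member lower, beside 6.42% of all genes. The study selected its list of genes lower in Hom on these libraries with a Kruskal-Wallis test, and Cbln1 is in it. Neither the direction nor a low p-value is therefore independent evidence. The exact two-sided permutation test of genotype labels within batch gave p = 0.0167, the smallest its 60 arrangements allow. The exact Kruskal-Wallis test over the 3 genotypes, permuted within batch, gave p = 3.97e-05, also the smallest possible. The call was lost in batch 1 alone (-0.41) and in batch 2 alone (-0.54), with limma adjusted p-values up to 0.181. The interaction term of genotype and batch, which tests the difference between these values, had a limma adjusted p of 0.622.

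In Het, Cbln1 was not called (difference -0.16, SE 0.06, 95% interval -0.28 to -0.03, limma adjusted p 0.691). No gene was called lower in Het by limma (0.0% of those tested) and 0.00577% were called higher, with no member among them. Before adjustment (p under 0.05), Cbln1 was lower in Het, beside 2.88% of all genes, and Cbln4 higher, beside 3.2%. The permutation test for Cbln1 gave an unadjusted exact p = 0.0167 over 120 arrangements. Between Hom and Het the difference was -0.31 (SE 0.06, 95% interval -0.44 to -0.18) with a limma adjusted p of 0.0542, just outside the threshold. In that comparison 0.277% of genes were called lower and 0.15% higher, and no member was among them.

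Some markers of the granule cell lineage also differed between WT and Hom, and most did not pass the test. The summed TPM of 6 granule neuron markers was 1296 to 1792 in WT, 1472 to 1596 in Het and 1054 to 1385 in Hom, and the Hom sums lay below the WT sums within each batch. Of the 5 that were tested, Neurod1 (-0.55, limma adjusted p 0.0116), a transcription factor of differentiating granule cells, and Slc17a7 (-0.71, adjusted p 0.0439), a vesicular glutamate transporter, were called lower in Hom, while Grin2c (1.51, adjusted p 0.00465), a glutamate receptor subunit, was called higher. Of the 6 progenitor markers only Ccnd1, a cyclin of dividing progenitors, was called (0.80 higher, adjusted p 0.000111). Of the 6 genes listed for interneurons, Lhx1 was called lower, and all others had uncalled differences above 0 (0.12 to 0.41). No marker of Purkinje cells, unipolar brush and nuclear neurons, astroglia, oligodendroglia, microglia or endothelium was called. Some of these uncalled differences were larger than that of Cbln1. All 5 endothelial markers had Hom differences of 1.28 to 1.92, and 5 of the 6 astroglial markers had differences of -1.10 to -0.74. The Purkinje cell markers that were tested gave -1.92 (Pcp2), -1.13 (Calb1), -0.94 (Car8), -0.06 (Itpr1) and 0.10 (Foxp2). The summed astroglial TPM was 235 to 791 in WT, 301 to 508 in Het and 168 to 369 in Hom. The part of the granule cell and astroglial markers in the Cbln1 result was not tested. With the mean log2(TPM + 1) of the endothelial and of the Purkinje cell markers as covariates, the Cbln1 difference was -0.46 (adjusted p 0.00286). Without WT 1 to 3 and Het 3 it was -0.53 (adjusted p 0.0409). The only WT libraries left in that fit were WT 4 and WT 5, both of batch 2. It therefore overlaps with the fit of batch 2 alone (-0.54).

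Cbln4, a cerebellin better known from other brain regions, had the largest ratio of Hom to WT means among the 7 members. Its TPM was 1.08, 0.91, 0.81, 1.91 and 3.22 in WT 1 to 5. The Het libraries gave 2.52, 1.93, 1.52, 2.46 and 6.87. The Hom libraries gave 4.58, 3.98, 2.61 and 7.97. Within batch 1 all Hom and all Het values lay above all WT values, but in batch 2 the groups overlapped. How many of all genes had such an order in a single batch was not counted. The Hom mean was 3.02 times the WT mean (459% of it in batch 1, 206% in batch 2), and the Het mean was 1.93 times the WT mean.

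The fitted Cbln4 difference was 1.10 in Hom (SE 0.30, 95% interval 0.46 to 1.74) and just missed the threshold (limma adjusted p 0.0727). In Het it was 0.60 (SE 0.28, adjusted p 0.814). The exact permutation p-values were 0.0333 and 0.05. The 4 lowest values came from WT 1, WT 2, WT 3 and Het 3, the libraries that stood apart in their endothelial and Purkinje cell markers. Without these, which leaves WT 4 and WT 5 of batch 2 as the only WT libraries, the Hom difference was 0.85 (adjusted p 0.376). With both marker covariates it was 0.89 (adjusted p 0.236). Cbln4 was called with array weights (1.22), in batch 1 alone (1.45) and with the replicate number as a block. It was also called when either Het 5 or Hom 3 was left out (0.96 to 1.42 over all single libraries left out).

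Cbln2, expressed by many forebrain neurons, gave TPM values of 2.15, 4.42, 2.84, 4.79 and 3.31 in WT 1 to 5. In Het 1 to 5 they were 2.75, 7.48, 1.71, 6.66 and 5.72, and in Hom 1 to 4 they were 2.90, 8.87, 7.02 and 9.31. Hom 1 lay inside the WT range and the other Hom libraries above it. The Hom mean was 2.01 times the WT mean, with a fitted difference of 0.72 (SE 0.33, 95% interval 0.01 to 1.43, limma adjusted p 0.326). With the marker covariates the difference was 0.27 (adjusted p 0.647), and without Hom 2 it was 0.47.

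Cbln3, which is secreted by granule cells only together with Cbln1, lay between 1.56 and 2.93 TPM in WT, 1.75 and 2.34 in Het and 1.82 and 2.56 in Hom. The Het and Hom values all fell inside the WT range. The Hom difference was -0.04 (SE 0.16, 95% interval -0.38 to 0.29, limma adjusted p 0.939), and differences within that interval could not be told apart from 0.

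**Figure D2:**
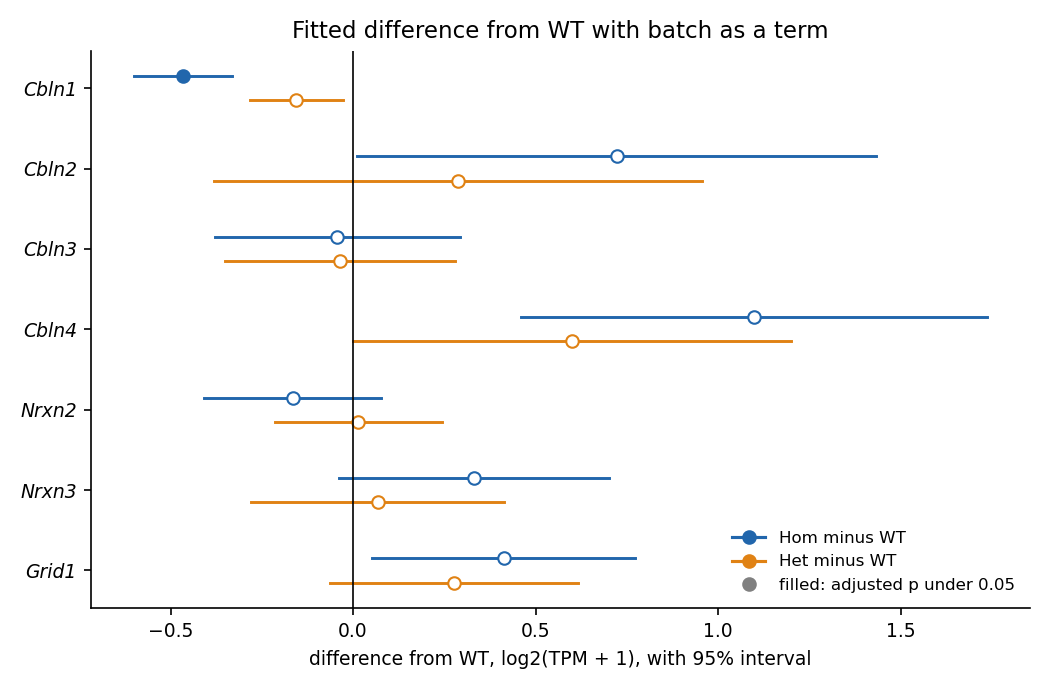
Fitted difference from WT (x axis, log2(TPM + 1), batch as a term) for Hom and Het, with bars for the 95% interval and filled symbols for adjusted p under 0.05. Only Cbln1 in Hom (-0.47) carries a filled symbol.

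Neurexins are the presynaptic receptors of cerebellins. Nrxn2, one of the abundant members, gave 68.1, 81.5, 71.9, 121 and 87.7 TPM in WT 1 to 5. The Het values were 75.0, 86.5, 76.9, 98.6 and 91.1, and the Hom values were 61.5, 81.2, 91.2 and 76.4. The 3 genotypes overlapped in both batches. The Hom difference was -0.16 (SE 0.11, 95% interval -0.41 to 0.08, limma adjusted p 0.544) and the Het difference 0.01 (SE 0.11, 95% interval -0.21 to 0.24). The Hom value ran from -0.26 without Hom 2 to -0.06 without WT 4 when 1 library was left out. It was -0.30 with the marker covariates and -0.30 without WT 1 to 3 and Het 3.

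Nrxn3 was at 16.0, 18.5, 15.6, 24.9 and 22.8 TPM in WT 1 to 5. It was at 16.5, 23.4, 16.5, 21.8 and 24.2 in Het 1 to 5 and at 19.1, 35.1, 23.8 and 23.9 in Hom 1 to 4. Hom 2 was the highest library of all, and both Hom libraries of batch 2 lay between the WT libraries of that batch. The Hom mean was 162% of the WT mean in batch 1 and 100.1% in batch 2, with a fitted difference of 0.33 over both (SE 0.17, 95% interval -0.04 to 0.70, limma adjusted p 0.394). The difference between batches had a limma adjusted p of 0.363 (unadjusted 0.0875). With the marker covariates the difference was 0.02, without Hom 2 it was 0.10 and without WT 1 to 3 and Het 3 it was 0.09.

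Delta receptors are the postsynaptic partners, and Grid1 is found in many brain regions. Grid1 was at 3.48, 4.53, 3.66, 7.15 and 4.64 TPM in WT 1 to 5. The Het values were 4.43, 5.50, 4.19, 7.30 and 8.09, and the Hom values were 3.89, 7.54, 7.99 and 8.25. In batch 2 every Het and Hom library lay above both WT libraries, and in batch 1 the 3 genotypes overlapped. The share of all genes with such an order in a single batch was not counted. The Hom mean was 147% of the WT mean and similar in the batches (147% and 138%). The Hom difference was 0.41 (SE 0.17, 95% interval 0.05 to 0.77, limma adjusted p 0.265) and the Het difference 0.28 (SE 0.16, adjusted p 0.842), so Grid1 was not called. The Hom difference was 0.25 without Hom 2 and 0.26 with the marker covariates. At an unadjusted p under 0.05, Grid1, Cbln2 and Cbln4 were the 3 members higher in Hom, where 8.51% of all genes were.

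The make-up of the cerebellin pool is given here as a description of the same values. Cbln1 held 96.1% of the cerebellin TPM in WT (SD 0.80), 94.2% in Het (SD 1.81) and 90.4% in Hom (SD 3.24). Cbln2 held 1.89%, 2.83% and 4.89% in the same order, and Cbln4 0.81%, 1.75% and 3.31%. The summed cerebellin TPM was 186 in WT (SD 24.9), 170 in Het (SD 13.8) and 145 in Hom (SD 12.1).

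**Figure D3:**
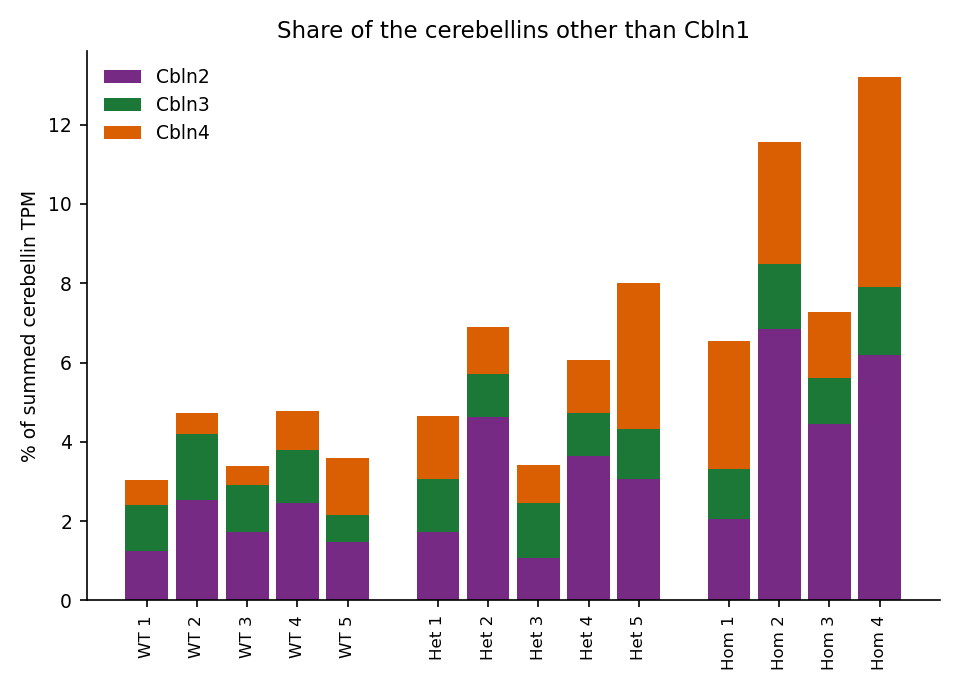
Share of Cbln2, Cbln3 and Cbln4 in the summed cerebellin TPM (y axis, percent) in each library (x axis), stacked, with Cbln1 counted in the total and not drawn. The bars are tallest in Hom 2 and Hom 4.

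The batches themselves separated some members, and the strain labels follow the batches in every library except Het 3, so batch and strain label cannot be told apart. Batch 2 was higher for Cbln1 by 0.21 (limma adjusted p 0.0159), for Nrxn2 by 0.33 (adjusted p 0.0306) and for Grid1 by 0.53 (adjusted p 0.0218), which are 3 of 7 members where 7.88% of all genes were called higher. No genotype by batch term of the members (14 in all) had an unadjusted p under 0.05.

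Beyond the bridge itself, 54 partner genes were followed, of which 51 were tested: C1q-like ligands with their receptor, neurexin ligands, other synapse organisers and synaptic scaffolds. In Hom, 5 were called lower (9.80%, beside 1.41% of all genes) and 3 higher (5.88%, beside 1.27%). The median difference was -0.05 over the partner genes and 0.02 over all genes. None was called in Het in either direction. The partner lists were chosen with earlier results of these data known, so these shares are a description and not independent evidence. Slitrk5, Adgrb3 and Flrt3 are also in the list that the study selected on these libraries, so their direction is not independent evidence.

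Adgrb3 encodes the adhesion receptor of C1q-like proteins on Purkinje cells, but which cells of these GNP libraries gave its reads was not tested. Adgrb3 was at 36.4, 42.3, 44.9, 42.9 and 40.4 TPM in WT 1 to 5. It was at 31.4, 31.3, 27.9, 28.5 and 27.1 in Het 1 to 5 and at 23.0, 26.0, 18.0 and 21.1 in Hom 1 to 4. Its 3 genotypes did not overlap, and it fell by 0.88 in Hom (SE 0.09, limma adjusted p 0.000126). Of all genes tested, 0.214% had this falling order with no overlap in either batch. Its ligand gene C1ql1, a relative of the cerebellins, was higher by 0.42 (SE 0.07, adjusted p 0.00638), with means of 62.6 TPM in WT, 83.9 in Het and 88.0 in Hom.

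Slitrk5, a transmembrane organiser that binds presynaptic receptor phosphatases, was between 24.5 and 29.3 TPM in WT, 23.2 and 26.3 in Het and 14.2 and 15.4 in Hom. It fell by 0.81 in Hom against WT (SE 0.07, limma adjusted p 4.83e-05) and by 0.66 against Het (adjusted p 0.00094). Flrt3, a ligand of latrophilins, fell by 0.70 (adjusted p 0.0353), with -0.33 in batch 1 and -1.15 in batch 2. Cadm3, an immunoglobulin adhesion molecule, fell by 0.34 (adjusted p 0.0461), whereas its relative Cadm1 rose by 0.37 (adjusted p 0.0231). Ntrk3, the neurotrophin-3 receptor, rose by 0.84 (SE 0.14, adjusted p 0.00518), from a mean of 20.6 TPM to 38.6.

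Dlg2, a postsynaptic scaffold of the PSD-95 family, fell by 0.63 in Hom (SE 0.08, limma adjusted p 0.000626), from a mean of 43.2 TPM to 27.3. None of the 14 neurexin ligands, which include the neuroligins and LRRTMs, was called in Hom, with differences from -0.39 to 0.41. None of the 6 presynaptic scaffold genes was called either, although 5 of them had differences below 0. Without WT 1 to 3 and Het 3, which leaves WT 4 and WT 5 of batch 2 as WT, no partner gene was called higher and 4 were called lower. The 3 genes called higher over all libraries kept differences of similar size in that smaller fit. These were 0.95 for Ntrk3, 0.44 for C1ql1 and 0.32 for Cadm1 (limma adjusted p 0.0831 to 0.207). Flrt3 moved more, from -0.70 to -1.10. Slitrk5, Adgrb3, Dlg2, Ntrk3 and C1ql1 were called in all 14 fits that left out 1 library. Cadm1 was called in 10 of them, all but those without WT 1, WT 5, Hom 2 or Hom 4. Flrt3 was called in 7, all but those without WT 2 to 5, Hom 1, Hom 3 or Hom 4, and Cadm3 in only 3, those without Het 1, Het 2 or Het 4.

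**Figure D4:**
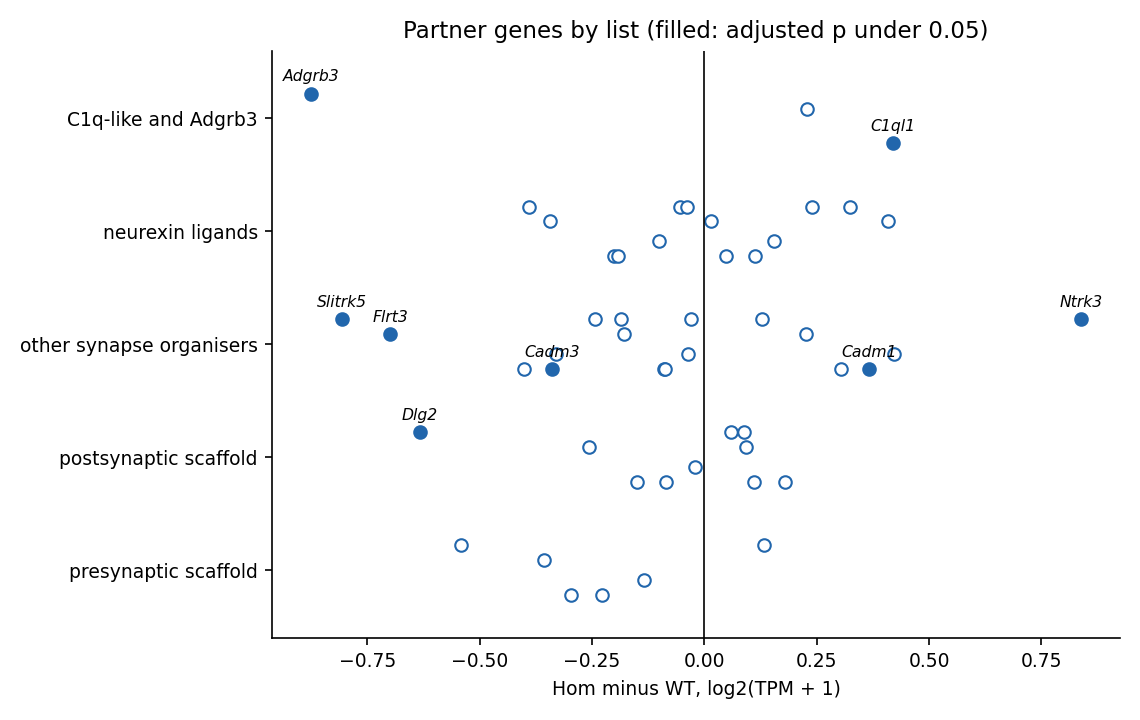
Hom minus WT difference (x axis, log2(TPM + 1)) of the 51 tested partner genes, 1 point per gene, in rows by list, with filled and named points for adjusted p under 0.05. Called genes lie in 3 of the 5 lists, and none in the neurexin ligands or presynaptic scaffolds.

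For each member, the genes with the most similar pattern were ranked by Pearson's r of batch-centred log2(TPM + 1) over the 14 libraries, which share genotype and cell composition, so r is a description only. Cbln1 was closest to A730046J19Rik (r = 0.952), Barhl2 (0.952) and Hmgcs1 (0.950). Cbln2 was closest to Gfra1 (0.950), Mmp15 (0.939) and Sulf2 (0.934), and Cbln3 to Wif1 (0.904), AI464131 (0.873) and Cmbl (0.863). Cbln4 was closest to Kcne1 (0.971), Slc38a4 (0.940) and Bag3 (0.925). Grid1 was closest to Elfn2 (0.946), Brinp2 (0.944) and Inpp5d (0.925). Nrxn2 was closest to Gpatch2l (0.937), Sdc3 (0.937) and Lhfpl4 (0.934), and Nrxn3 to Ypel2 (0.949), Masp1 (0.947) and Trub1 (0.944). No gene appeared in the lists of more than 1 member.

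**Figure D5:**
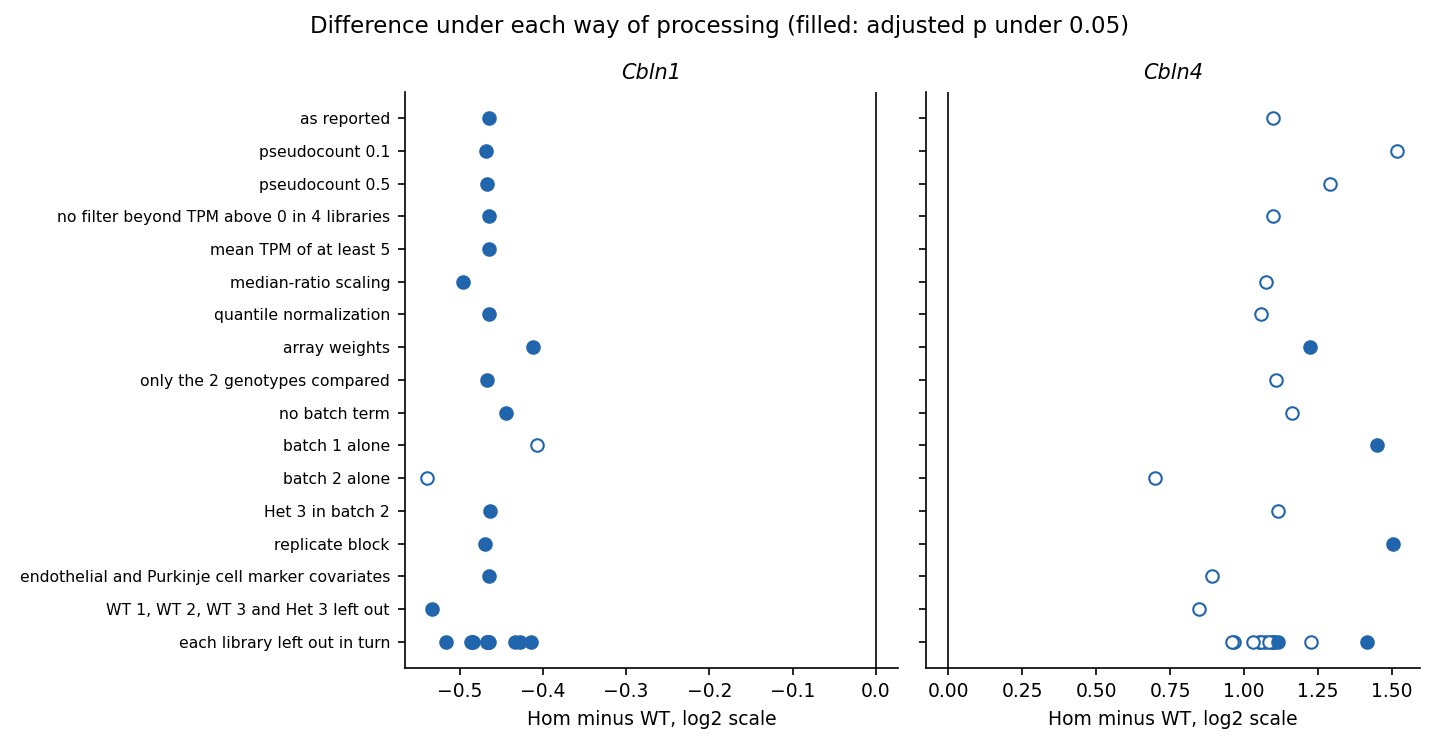
Hom minus WT difference (x axis, log2 scale) of Cbln1 and Cbln4 under each way of processing (y axis), 1 point per fit, filled where the adjusted p was under 0.05. Cbln1 stays between -0.54 and -0.41 and loses the call in each batch alone, and Cbln4 stays above 0 and passes in a minority of the fits.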

How the data were processed

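RNA-seq libraries (total RNA, single-end 50-base reads) were aligned by the authors to mm10 with Bowtie 1.0.0 and quantified with RSEM 1.2.15, and the deposited table holds TPM values for 41381 genes in 14 libraries. Column sums were 999999.14 to 1000000.79, as TPM requires. TPM keeps no depth, so the depth of each library is unknown and no counting error was computed. Columns headed as controls were taken as WT of the same number. Batches follow the study's methods.

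The 17325 genes that reached 1 TPM in 4 or more libraries were analysed as log2(TPM + 1), which understates changes of low genes. The model of genotype and batch used limma 3.58.1 (lmFit, eBayes with trend; R 4.3.3) over all libraries, two-sided, with Benjamini-Hochberg adjustment over all genes tested. A gene was called at an adjusted p under 0.05. Exact permutations of labels within batch were run for single genes (14 tests). Beside them, a Kruskal-Wallis test with permuted labels was run on values from which batch had been removed once. The study used ComBat, which was not run here. Cell type sums are unweighted TPM of 9 marker lists. Positions, coding sequences and shared 50-base stretches come from the GENCODE annotation of GRCm38.

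The genes named were the members, the called partner genes (at most 12), and the 3 genes most like each member. Some genes that the lists covered are not reported here. Members and lists were chosen with earlier results of these data known. Alternatives changed 1 choice at a time: pseudocount (0.1, 0.5), filter (TPM above 0 in 4 libraries, mean TPM of at least 5), median-ratio or quantile scaling, array weights, 2 genotypes only, no batch term, each batch alone, Het 3 in batch 2, a replicate block, marker covariates, and each library left out. A fit without WT 1 to 3 and Het 3 was added after the data were seen. Its only WT libraries were WT 4 and WT 5, both of batch 2. The tests were tested on simulated data.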

Additional observations from a re-analysis of the deposited data

Results flagged for a closer look

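Within the groups of 4 and 5 libraries, the highest or lowest value was compared with its neighbour by Dixon's test for each member. Of 21 groups, 1 held a library far from the rest, and chance alone gives about 1 in 20. Grid1 in Hom 1 was 3.89 TPM, while the other Hom libraries had 7.54 to 8.25 TPM. Cbln2 was also lowest in Hom 1 (2.90 against 7.02 to 9.31 TPM). So were the oligodendroglial sum (506 against 1086 to 1196) and the endothelial sum (100 against 187 to 300). The astroglial sum of Hom 1 (276) lay within the range of the others (168 to 369). The groups compared held libraries of both batches, and Grid1 was 0.53 higher in batch 2 (limma adjusted p 0.0218). Within batch 1, Hom 1 lay inside the WT and Het values of Grid1 (3.48 to 5.50 TPM), and Hom 2 (7.54 TPM) lay above them. Whether cell make-up or batch bears on the Grid1 value of Hom 1 was not tested. Without Hom 1 the sign of the Hom minus WT difference of Grid1 did not change. No difference between the batches in a genotype effect passed an unadjusted p under 0.05 for these genes (14 tests).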

How the results depend on the processing

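Cbln1 was called lower in Hom in all 14 fits that left out 1 library (-0.52 to -0.41, adjusted p 0.00127 to 0.00578) and in 13 of 15 other alternatives. Members called lower in Hom numbered 0 in batch 1 alone and 0 in batch 2 alone, where fewer libraries were fitted. Members called higher in Hom numbered 1 (Cbln4) with array weights, 1 in batch 1 alone and 1 with the replicate block. They numbered 0 to 1 over the fits that left out a library (1 without Het 5 and 1 without Hom 3). Members called lower in Hom against Het numbered 1 (Cbln1) with a mean TPM of at least 5 and 1 with array weights, and 0 to 1 with a library left out (1 without WT 5). Partner genes called lower in Hom went from 5 to 3 in batch 1 alone and without the filter on low values, to 0 in batch 2 alone, and to between 3 and 5 with a library left out (3 without any 1 of WT 2, WT 3, WT 4, WT 5, Hom 1, Hom 3 and Hom 4). Those called higher went from 3 to 1 with only the 2 genotypes compared and to 0 in either batch alone and without WT 1 to 3 and Het 3. In Het, 1 partner gene was called lower and 1 higher with array weights, and 1 higher without WT 4. The cause of these moves was not tested.

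Directions changed only for members that were not called. Cbln3 in Hom turned to 0.064 when batch 2 was fitted by itself, 0.034 with cell type covariates and 0.068 without the 4 libraries WT 1 to 3 and Het 3 (-0.14 to 0.037 with a library left out). Cbln3 in Het turned to 0.063, 0.13 and 0.059 (-0.13 to 0.050). Against Het, Cbln3 in Hom turned to 0.0015 in batch 2 alone and 0.0087 without the 4 libraries (-0.079 to 0.036), and Grid1 lay between -0.028 and 0.29. Nrxn2 in Het turned to -0.0038 with quantile scaling, -1.97e-05 with array weights, -0.12 in batch 2 alone, -0.043 with Het 3 in batch 2, -0.074 with the covariates and -0.12 without the 4 libraries (-0.031 to 0.11). Nrxn3 in Het turned to -0.052 in batch 2 alone, -0.17 with the covariates and -0.13 without the 4 libraries (-0.012 to 0.13).

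Equal replicate numbers did not pair the libraries: 3 of 13 same-number pairs had deviations correlated above 0.1 (r from -0.23 to 0.26). With the replicate number as a block, 1 member was called higher in Hom (Cbln4, 1.51), Cbln1 stayed called (-0.47) and 144 genes were called lower and 115 higher in place of 245 and 220. The counts over all genes also moved by over 1.5 times with only the 2 genotypes compared (123 lower, 136 higher), without the batch term (163 lower), in batch 1 alone (80 and 82), in batch 2 alone (4 and 0), without WT 1 to 3 and Het 3 (109 and 59), and without WT 2 (160 lower), WT 3 (162 lower), Hom 1 (147 and 140) or Hom 4 (161 and 137). The depth of the libraries is unknown, so no counting error could be given for the low levels of Cbln2, Cbln3 and Cbln4. With a pseudocount of 0.1 the Cbln4 difference was 1.52.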
